A study of Mus musculus with 17 samples.

Results

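The Hox genes encode homeodomain transcription factors that give cells along the head-to-tail axis of the body their position. Here they were described in the colon of mice with chemically induced colitis. A gene was taken as a member where a probe set of the array carried its symbol alone, from Hoxa, Hoxb, Hoxc or Hoxd followed by a paralog number, and the probe set with the highest mean stood for the gene. By this rule 33 Hox genes were measured, of 18193 genes with a probe set of their own. Cluster a gave 9 members, cluster b 9, cluster c 7 and cluster d 8. Of the 33 genes 19 were above background. Hoxd10 was high in 7 of the 17 samples, across genotypes and days, and its values picked out these 7. Hoxd10, which set this division, is higher in the 7 by definition. Of the other genes above background 5 were higher in each of the 7 than in any other sample, and 5 were lower. Of all probe sets above background 0.939% and 1.1% had these orders. Expression of 0 of the 33 passed the test in any comparison of days or genotypes. These comparisons called 0.00666% to 6.74% of all probe sets, so 0 of 33 is near the share of all.

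The study compared the colonic mucosa of WT and CD4cre mice, all in a C57BL/6J background, whose drinking water held 2.5% dextran sodium sulfate (DSS) over 0, 2 or 7 days. DSS injures the colonic epithelium and brings on colitis. CD4cre mice were PPAR γ flfl with a recombinase under the CD4-Cre promoter, which deletes the nuclear receptor PPAR γ from both CD4+ and CD8+ T cells, and the WT mice carried the same floxed alleles without Cre. Day 0 mice of both genotypes received no DSS. There were 3 samples in each of WT day 0, WT day 2, CD4cre day 0, CD4cre day 2 and CD4cre day 7, and 2 samples in WT day 7, 17 in all. The age of the mice and the stretch of colon taken for each sample were not given in the sources used here. Each sample was 1 array, and the labels do not say whether each came from a separate mouse, so p-values measure the spread between these samples.

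Over the samples, 56.1% to 58.2% of probe set values were above 3.01, the level of probe sets for receptors that the colon hardly expresses. Pancreatic acinar transcripts stood out in replicate 2 of CD4cre day 0, replicate 1 of CD4cre day 2 and replicate 2 of WT day 2, where the mean of 11 markers ranged from 12.11 to 12.82, against 3.40 to 4.17 in the other 14 samples. Without these 3 samples 0 Hox genes were called in any of the 10 tests, as with them. Over the tests that fit called 0.00222% to 2.06% of all probe sets, so 0 of 33 is near the share of all.

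In mammals the Hox genes lie in 4 clusters, and genes with the same paralog number in different clusters descend from 1 ancestral gene. Within a cluster the order of the genes along the chromosome follows the order of their expression along the body axis, with low numbers towards the head and groups 9 to 13 towards the tail. In the gut, Hox expression is found in the mesenchyme and, for several genes, in the epithelium, and Hoxb13, Hoxa13 and Hoxd13 are known from its tail end. Hox proteins bind DNA together with Pbx and Meis family homeodomain proteins. Caudal proteins such as Cdx2 act above them in the embryo, and Polycomb and Mll proteins keep Hox genes silent or active.

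The promoters of 2 pairs of paralogs are shown, because the members of each pair stand in different clusters and the pair of paralog group 9 took opposite values across the samples. They are the 250 bases before the annotated start in RefSeq, build GRCm38.p6, read 5′ to 3′ on the strand of the gene. Capitals mark TAAT, the core that homeodomain proteins prefer, or ATTA, the same letters on the other strand.
Hoxa9 (chr6:52227371-52227620, minus strand): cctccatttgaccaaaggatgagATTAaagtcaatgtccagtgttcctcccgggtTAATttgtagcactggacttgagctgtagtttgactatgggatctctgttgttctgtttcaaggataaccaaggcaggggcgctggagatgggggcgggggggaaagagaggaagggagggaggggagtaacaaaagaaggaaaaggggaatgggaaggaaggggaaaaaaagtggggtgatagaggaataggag
Hoxd9 (chr2:74697513-74697762, plus strand): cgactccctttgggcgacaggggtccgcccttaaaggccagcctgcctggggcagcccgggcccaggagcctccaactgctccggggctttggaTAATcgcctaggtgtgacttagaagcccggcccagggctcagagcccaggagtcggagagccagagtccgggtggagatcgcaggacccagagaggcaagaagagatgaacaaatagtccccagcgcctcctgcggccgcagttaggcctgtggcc
Hoxa13 (chr6:52260881-52261130, minus strand): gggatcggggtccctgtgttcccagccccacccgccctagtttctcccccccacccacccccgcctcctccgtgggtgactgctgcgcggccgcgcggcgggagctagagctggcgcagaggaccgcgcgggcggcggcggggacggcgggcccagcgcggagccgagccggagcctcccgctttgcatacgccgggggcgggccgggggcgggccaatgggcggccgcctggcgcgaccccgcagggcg
Hoxd13 (chr2:74667975-74668224, plus strand): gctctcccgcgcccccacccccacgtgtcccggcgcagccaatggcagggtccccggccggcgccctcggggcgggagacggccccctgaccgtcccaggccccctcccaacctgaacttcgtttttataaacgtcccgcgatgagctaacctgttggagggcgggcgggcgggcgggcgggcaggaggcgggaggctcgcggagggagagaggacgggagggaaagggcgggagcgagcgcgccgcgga

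The Hoxa9 window held 2 such cores, the Hoxd9 window held 1, and the windows of Hoxa13 and Hoxd13 held 0. Of the 33 members, 19 had a promoter entry in this table, with 21 starts, and 16 of the 21 windows (76.2%) held TAAT on either strand, against 54.9% of the 32851 windows of all genes. The letters TTTATG, which caudal proteins bind, stood on either strand in 3 of the 21 windows (14.3%), against 10.8% of all windows. These were the windows of Hoxa7, of Hoxd3 and of 1 start of Hoxd11. The letters TGATTNAT, bound by Pbx and Hox proteins together, stood in 2 of the 21 windows (9.52%), those of Hoxa2 and of the other start of Hoxd11, against 2.82% of all windows. A TGATTNAT match whose N is A also holds a TAAT. A match is a description of the letters only.

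Expression was measured as log2 gcRMA values, a log2 intensity scale on which a step of 1 is a doubling. A gene was counted as above background where its mean over the 17 samples was over 3.01, the 95th percentile of the means of 78 probe sets for odorant, vomeronasal and trace amine receptors, which the colon hardly expresses. By this limit 19 of the 33 Hox genes were above background. In cluster a these were Hoxa2, Hoxa3, Hoxa5, Hoxa7, Hoxa9, Hoxa10, Hoxa11 and Hoxa13, 8 of 9. In cluster b they were Hoxb3, Hoxb4, Hoxb5, Hoxb6, Hoxb9 and Hoxb13, 6 of 9. In cluster d they were Hoxd3, Hoxd8, Hoxd9, Hoxd10 and Hoxd13, 5 of 8. Of the 7 genes measured in cluster c, 0 were above background. The means of these 7 genes ran from 1.90 for Hoxc9 to 2.99 for Hoxc6, at or near the level of probe sets with no signal. In single samples Hoxc6 was over the limit in 5, at up to 3.68, and Hoxc4 in 1, at 3.65.

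**Figure D1:**
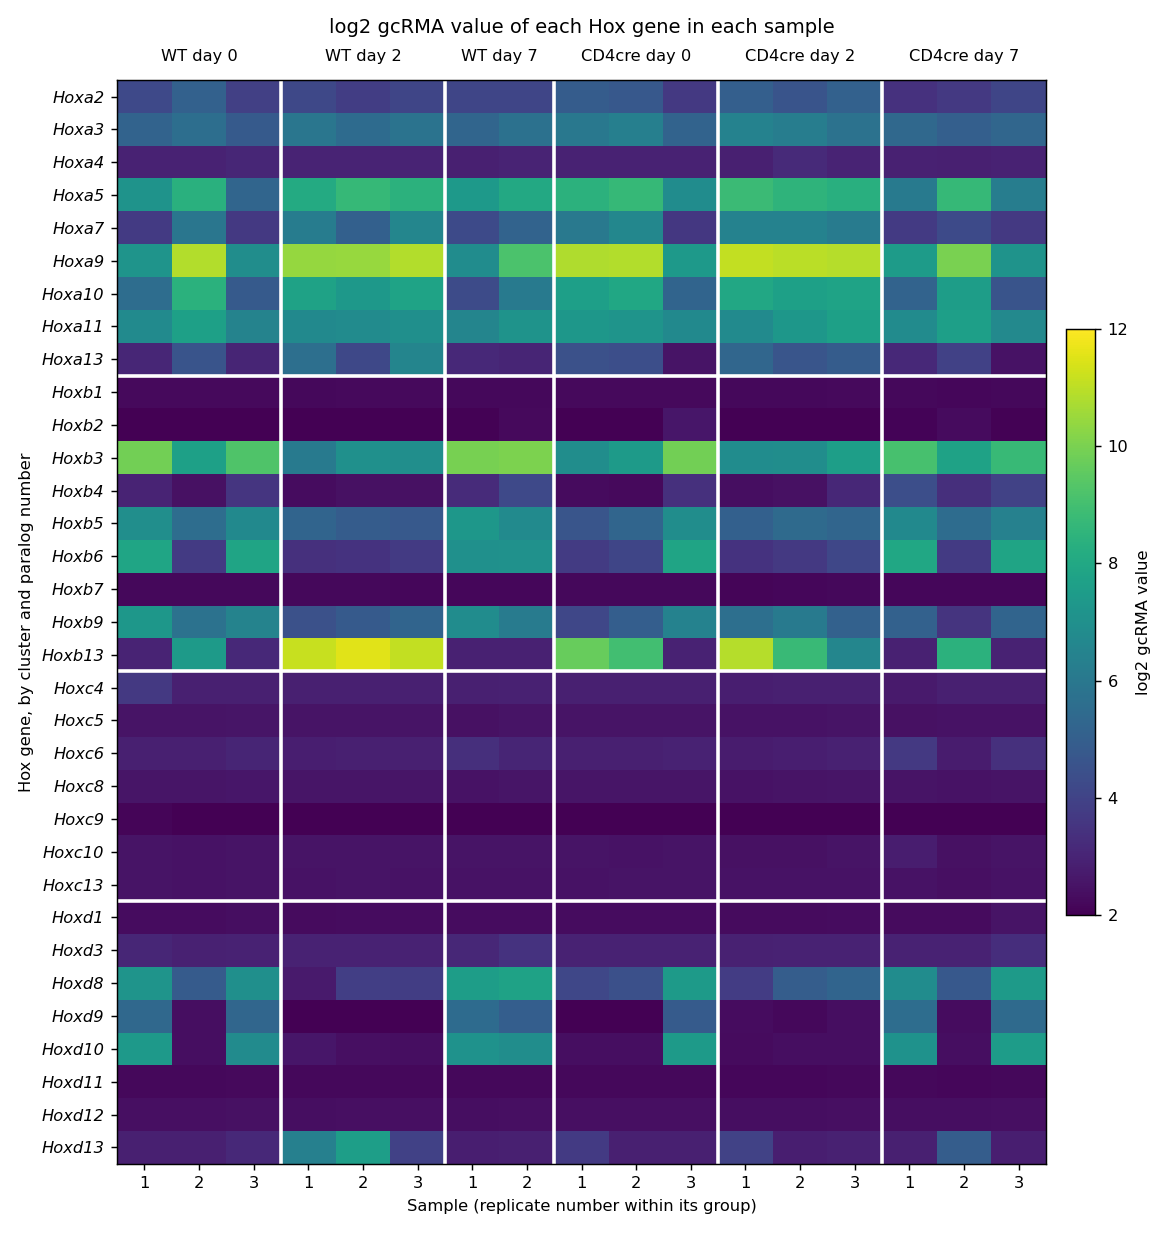
Heat map of the log2 gcRMA value (colour, 2 to 12) of 33 Hox genes (rows, by cluster and paralog number) in 17 samples (columns, by genotype and day of DSS, numbered by replicate). Cluster c is dark throughout, while Hoxb6, Hoxd8, Hoxd9 and Hoxd10 are bright in the same 7 samples in which Hoxb13 is dark.

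By paralog number, 5 of 10 measured genes of groups 1 to 4 were above background, 5 of 9 of groups 5 to 8, and 9 of 14 of groups 9 to 13. In cluster a, 7 genes were over the limit in each of the 17 samples, and the exception, Hoxa13, was over it in 15. In cluster b, Hoxb3, Hoxb5, Hoxb6 and Hoxb9 were over it in 17 samples, Hoxb13 in 11 and Hoxb4 in 8. In cluster d 0 genes were over it in every sample. Hoxd8 was over it in 16, Hoxd9, Hoxd10 and Hoxd13 in 7 each and Hoxd3 in 4. Of the 33 genes, 11 were over the limit in 0 samples: Hoxb1, Hoxb2, Hoxb7, Hoxc5, Hoxc8, Hoxc9, Hoxc10, Hoxc13, Hoxd1, Hoxd11 and Hoxd12. Just inside the limit lay Hoxb4 (mean 3.01) and Hoxd3 (mean 3.02), and just outside it Hoxc6 (2.99) and Hoxa4 (2.97). The counts depend on the limit chosen. With the 90th percentile, a limit of 2.86, Hoxa4, Hoxc4 and Hoxc6 would be above background too. With the 99th, a limit of 3.78, Hoxb4, Hoxd3, Hoxd9 and Hoxd13 would not be. Levels of different genes were not set against each other, since different probe sets bind with different strength.

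The paralog group 13 genes are the last of their clusters. Hoxc13 stayed at background, while Hoxa13, Hoxb13 and Hoxd13 each had their highest group mean on WT day 2. In the 7 samples with high Hoxd10, Hoxa13 reached at most 3.16, Hoxb13 3.15 and Hoxd13 3.15. Hoxd13 alone of these also lay at background in part of the other 10 samples. Hoxb13, known from the tail end of the body and the prostate, measured 2.98, 7.47 and 3.15 in the WT day 0 samples, 11.16, 11.54 and 11.08 on WT day 2, and 2.94 and 2.91 on WT day 7. In CD4cre mice it measured 9.67, 8.98 and 2.97 on day 0, 10.87, 8.79 and 6.60 on day 2, and 2.93, 8.42 and 2.94 on day 7. Each of the 6 day 2 samples was thus well above background, while 6 of the other 11 samples lay at or under 2.98 and 1 lay at 3.15. On day 0 in both genotypes and on CD4cre day 7 both levels occurred within a group, and these 3 groups overlapped. The WT day 2 samples were above all others. The WT day 7 samples, at 2.94 and 2.91, and the lowest day 0 samples, at 2.97 and 2.98, were all under background. Their order was not read as a difference.

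Hoxd13, which with Hoxa13 patterns the digits and the end of the gut and urogenital tract, was at background in most samples. It measured 2.88, 2.89 and 3.15 on WT day 0, 6.37, 7.60 and 3.92 on WT day 2, and 2.83 and 2.88 on WT day 7. In CD4cre mice it measured 3.70, 2.87 and 2.88 on day 0, 3.98, 2.83 and 2.90 on day 2, and 2.89, 4.93 and 2.86 on day 7. The WT day 2 samples were the highest group, but CD4cre samples from day 2 and day 7 reached into its range. A second Hoxd13 probe set had a mean of 2.13, under background.

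Hoxa13 measured 3.08, 4.58 and 3.05 on WT day 0, 5.65, 4.15 and 6.57 on WT day 2, and 3.16 and 3.02 on WT day 7. In CD4cre mice it measured 4.46, 4.40 and 2.54 on day 0, 5.29, 4.65 and 4.89 on day 2, and 3.16, 3.93 and 2.51 on day 7. The 6 day 2 samples lay between 4.15 and 6.57, and the highest of the others lay at 4.58. Hoxc13 measured 2.52, 2.49 and 2.54 on WT day 0, 2.49, 2.51 and 2.50 on WT day 2, and 2.47 and 2.50 on WT day 7. In CD4cre mice it measured 2.50, 2.51 and 2.51 on day 0, 2.47, 2.48 and 2.51 on day 2, and 2.50, 2.43 and 2.48 on day 7, all within background.

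**Figure D2:**
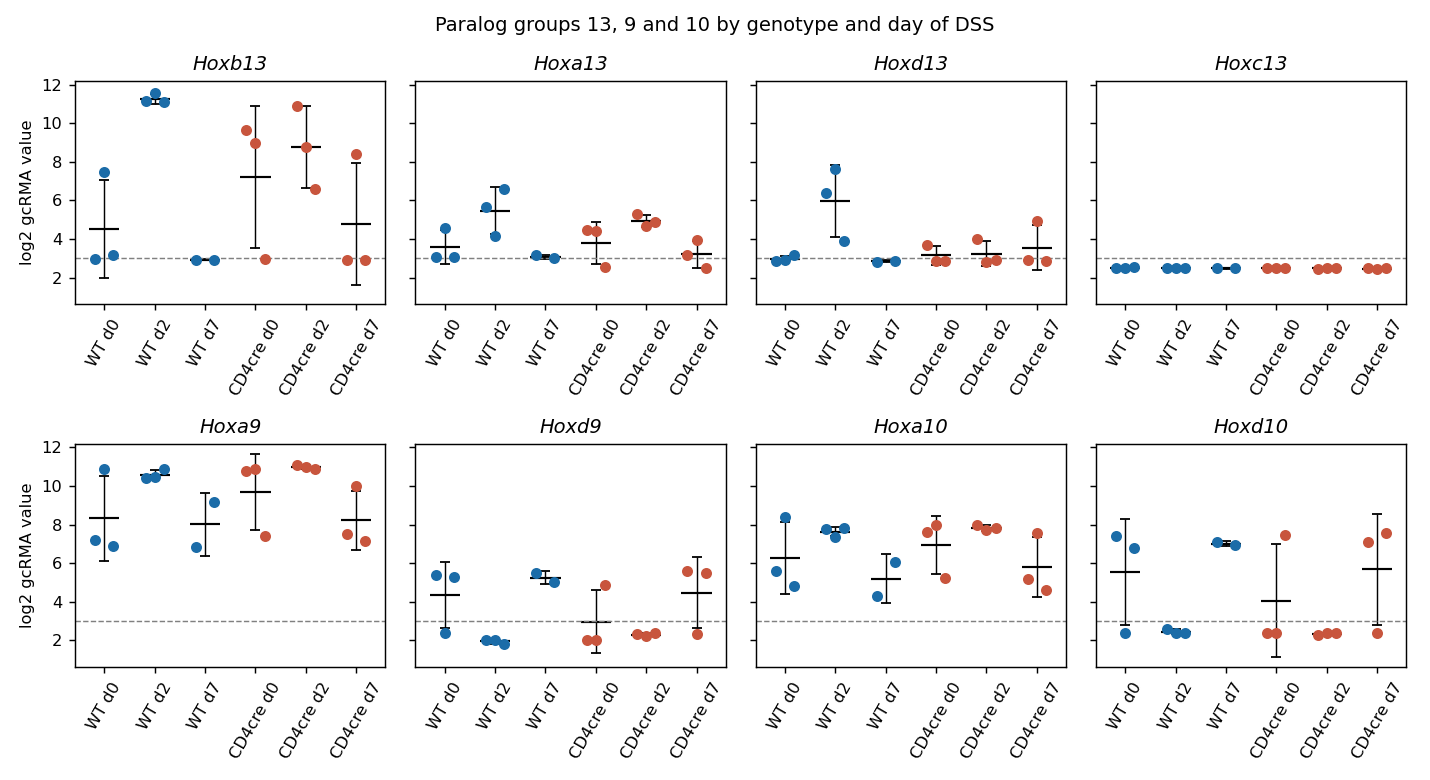
Log2 gcRMA values (y axis) of 8 Hox genes of paralog groups 13, 9 and 10 by genotype and day of DSS (x axis, d for day), blue WT and red CD4cre. Each point is a sample, the line and bar are the mean ± SD of the group, and the dashed line is the background limit of 3.01. For Hoxb13 and Hoxd10 the samples of WT day 0, CD4cre day 0 and CD4cre day 7 split into a high and a low level.

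The gene of cluster d with the largest spread within groups was Hoxd10, known from the hindlimb and its motor neurons. It measured 7.41, 2.37 and 6.81 on WT day 0, 2.59, 2.40 and 2.37 on WT day 2, and 7.11 and 6.91 on WT day 7. In CD4cre mice it measured 2.38, 2.37 and 7.43 on day 0, 2.30, 2.35 and 2.38 on day 2, and 7.12, 2.36 and 7.54 on day 7. Hoxd10 thus stood between 6.81 and 7.54 in 7 samples and between 2.30 and 2.59, under background, in the other 10, with no sample between. The 7 samples were 2 of 3 on WT day 0, 0 of 3 on WT day 2, 2 of 2 on WT day 7, 1 of 3 on CD4cre day 0, 0 of 3 on CD4cre day 2 and 2 of 3 on CD4cre day 7. They are no group of the study, and were picked out by Hoxd10 after its values were seen.

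The member of cluster a with the largest spread was Hoxa9, also known as a regulator of blood progenitors. It measured 7.18, 10.86 and 6.90 on WT day 0, 10.43, 10.46 and 10.86 on WT day 2, and 6.84 and 9.16 on WT day 7. In CD4cre mice it measured 10.80, 10.86 and 7.42 on day 0, 11.08, 10.98 and 10.90 on day 2, and 7.50, 9.99 and 7.13 on day 7. Hoxa9 was above background throughout, and its lowest 7 values fell in the same 7 samples in which Hoxd10 was high.

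The same division of samples ran through most of the Hox genes above background. Hoxd10 is higher in the 7 samples by definition, since it picked them out. Besides it, 5 genes of clusters b and d were higher in each of the 7 than in any of the other 10. They were Hoxb3, Hoxb5, Hoxb6, Hoxd8 and Hoxd9. Hoxd9 was over the background limit in these 7 samples only, and its mean met the limit through them. Of all 25759 probe sets above background, 0.939% had this order. In cluster a and at the end of cluster b, 5 genes were lower in each of the 7 samples than in any of the other 10: Hoxa5, Hoxa9, Hoxa10, Hoxa13 and Hoxb13. Of all probe sets above background, 1.1% had this order. The other 8, Hoxa2, Hoxa3, Hoxa7, Hoxa11, Hoxb4, Hoxb9, Hoxd3 and Hoxd13, had neither.

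The gap between the samples was wide for several of these genes. Hoxb6 ranged from 7.00 to 7.96 in the 7 samples and from 3.39 to 4.14 in the other 10. Hoxd9 ranged from 4.86 to 5.58 in the 7 and from 1.81 to 2.36, under background, in the other 10. Hoxd8 ranged from 6.85 to 7.77 and from 2.72 to 5.20, Hoxb3 from 8.75 to 10.01 and from 6.10 to 7.77, and Hoxb5 from 6.40 to 7.30 and from 4.63 to 5.57. For genes of the opposite order, Hoxa10 ranged from 4.29 to 6.08 in the 7 samples and from 7.35 to 8.39 in the other 10. Hoxa5, which the developing lung and gut need, ranged from 5.26 to 8.02 and from 8.11 to 8.82, a narrow gap.

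Some genes with the same paralog number ran in opposite directions in different clusters, and others did not. Hoxa9 and Hoxa10 were low in the samples in which Hoxd9 and Hoxd10 were high, although each pair shares a number. Within cluster b, Hoxb13 ran opposite to Hoxb3, Hoxb5 and Hoxb6, and Hoxb9, which lies between them on the chromosome, ranged from 5.10 to 7.29 in the 7 samples and from 3.52 to 6.09 in the other 10. Hoxa5 is a middle gene of its cluster and had the order of Hoxa9, Hoxa10 and Hoxa13, while Hoxb5 had the opposite order. Hoxa13 and Hoxb13, on the other hand, were both low in the 7. Of Hoxa3 and Hoxb3, and of Hoxa9 and Hoxb9, only 1 gene of each pair had either order. These orders are descriptions of the same 17 samples, with no test.

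**Figure D3:**
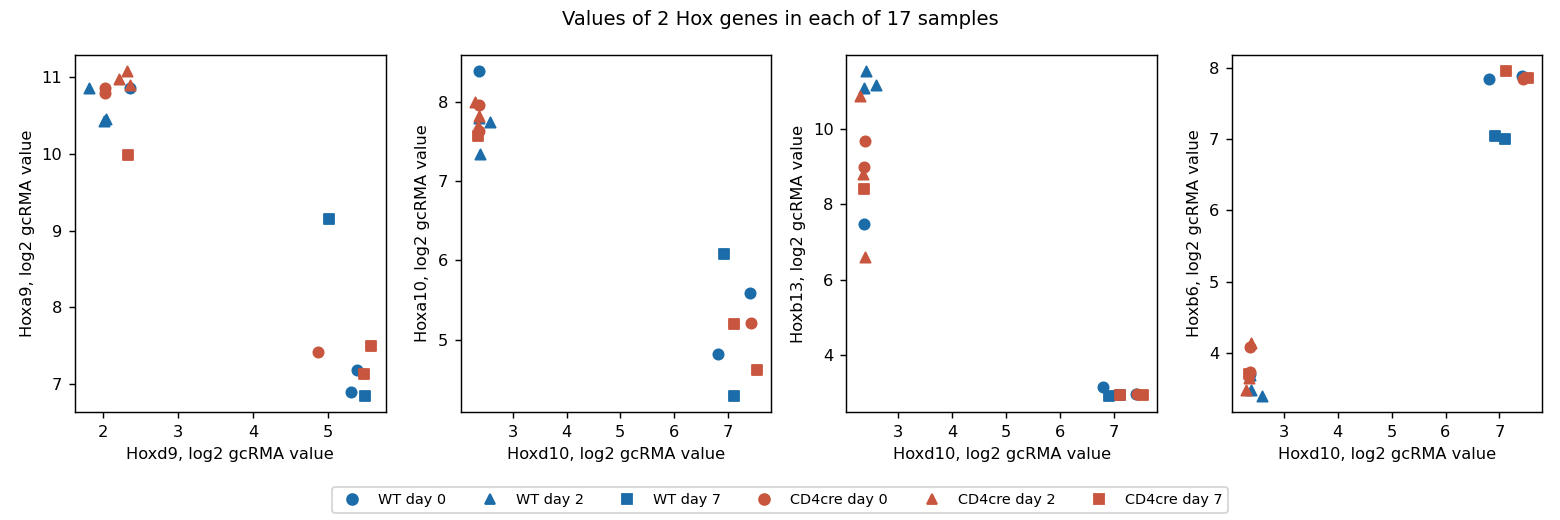
Log2 gcRMA values of pairs of Hox genes in each of 17 samples, blue WT and red CD4cre, with circles for day 0, triangles for day 2 and squares for day 7. The points fall in separate clusters: Hoxa9, Hoxa10 and Hoxb13 are high where Hoxd9 or Hoxd10 is low, and Hoxb6 is high where Hoxd10 is high.

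Other probe sets of the same loci were read beside these. The second probe sets of Hoxa10 and Hoxd8 had the order of the first, and those of Hoxa3, Hoxa5, Hoxa9 and Hoxb3 that were above background had neither order. Hoxa11os, a transcript antisense to Hoxa11, ranged from 4.34 to 5.51 in the 7 samples and from 8.20 to 9.76 in the other 10, whereas Hoxa11 itself ranged from 6.49 to 7.15 in the 7 and from 6.75 to 7.70 in the other 10. Hoxd3os1, an antisense transcript in cluster d, ranged from 4.25 to 6.86 in the 7 and from 2.94 to 3.32 in the other 10. Hoxb5os, of cluster b, had neither order, from 6.31 to 9.06 in the 7 and from 7.32 to 9.01 in the other 10. A second probe set each of Hoxa11os and Hoxd3os1 had means of 2.17 and 2.37, under background.

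The spread between samples of the same group was large for the Hox genes. The residual SD within groups, on the log2 scale, had a median of 0.97 over the 19 Hox genes above background, against 0.23 over all 25759 probe sets above background. It exceeded 1 for 9 of the 19 (47.4%), against 1.23% of all. The highest were Hoxb13 with 2.51, Hoxd10 with 2.11, Hoxb6 with 1.76 and Hoxa9 with 1.51, and the lowest was Hoxd3 with 0.12. Within CD4cre day 0 alone, Hoxb13 spanned 6.70 log2 units between its 3 samples, and within CD4cre day 7 Hoxd10 spanned 5.18.

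**Figure D4:**
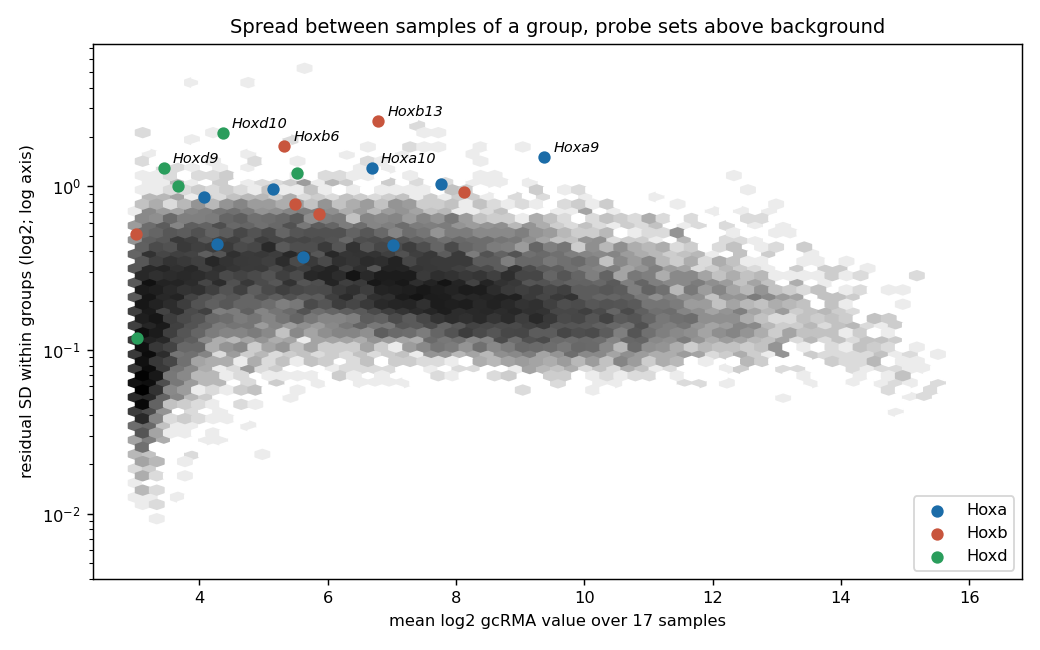
Residual SD within the 6 groups (y axis, log2 units on a log axis) against the mean log2 gcRMA value over 17 samples (x axis). Grey cells count all 25759 probe sets above background, darker for more, and coloured points are the 19 Hox genes by cluster. Most Hox genes lie at the upper edge of the grey cloud, with Hoxb13 at 2.51.

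The design asks whether DSS changed the genes in each genotype, whether the genotypes differed on each day, and whether the DSS effect differed between genotypes. In the limma fit of all 6 groups, with Benjamini-Hochberg adjustment over all 45037 probe sets and a threshold of 0.05, 0 of the 33 Hox genes were called in any of the 10 tests. In WT mice on day 2 against day 0, 0.449% of all probe sets were called. Without adjustment 8 Hox genes (24.2%) had p under 0.05, 3 higher and 5 lower, where 9.6% of all probe sets had, and the lowest adjusted p was 0.144, for Hoxd13. Without WT day 2 replicate 3, Hoxd13 was called, 1 of 33, where 0.184% of all probe sets were. With array quality weights, whose estimate did not converge, 16 of 33 were called, where 18.4% of all probe sets were.

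In WT mice, Hoxb13 was 4.53 ± 2.54 (SD, n = 3) on day 0 and 11.26 ± 0.25 (SD, n = 3) on day 2, a log2 difference of 6.73 ± 1.97 (SE) with a limma adjusted p of 0.2. Hoxd13 differed by 2.99 ± 0.79 (SE). The other posterior genes of cluster d went the other way, with Hoxd10 at -3.08 ± 1.65 (SE) and Hoxd9 at -2.39 ± 1.01 (SE), as did Hoxd8 at -2.87 ± 0.95 (SE) and Hoxb6 at -2.95 ± 1.38 (SE). Of the genes of cluster a, Hoxa9 differed by 2.27 ± 1.19 (SE) and Hoxa13 by 1.88 ± 0.68 (SE). The median over the 19 Hox genes above background was -0.13, beside -0.01 over all probe sets above background.

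Groups that did not overlap were counted as well. Between WT day 0 and WT day 2, 2 of the 19 Hox genes above background were higher in every day 2 sample, Hoxb13 and Hoxd13, where 11.1% of all probe sets above background were. There were 6 of the 19 that were lower in every day 2 sample, Hoxb3, Hoxb5, Hoxb6, Hoxb9, Hoxd8 and Hoxd9, where 12.5% of all were. A share of 2 in 19 is near that of all probe sets.

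On day 7 in WT mice 0.0866% of all probe sets were called, and the lowest adjusted p among the Hox genes was 0.488, for Hoxd3, with 2 at an unadjusted p under 0.05, where 9.57% of all were. The log2 differences from day 0 ran from -1.61 ± 2.21 (SE) for Hoxb13 to 1.48 ± 1.85 (SE) for Hoxd10. In CD4cre mice on day 2 0.0178% of all were called, and the log2 differences ran from -1.71 ± 1.65 (SE) for Hoxd10 to 1.55 ± 1.97 (SE) for Hoxb13, with a lowest adjusted p of 0.754 and 0 genes at an unadjusted p under 0.05, where 6.62% of all were.

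CD4cre mice on day 7 against day 0, the largest of the 4 DSS responses by count, called 6.74% of all probe sets and 0 Hox genes. The lowest adjusted p was 0.0879, for Hoxb4, with a log2 difference of 1.26 ± 0.40 (SE). Hoxb4, a gene of blood stem cells, measured 2.31, 2.24 and 3.41 in the CD4cre day 0 samples and 4.41, 3.34 and 3.99 on day 7, values that reach from under background to above it. The differences of Hoxb13, -2.44 ± 1.97 (SE), and Hoxd10, 1.61 ± 1.65 (SE), were the widest in either direction. Of the 19 genes 0 were higher in every day 7 sample, where 13.6% of all probe sets were, and 0 were lower, where 20.1% were. Without adjustment 5 Hox genes (15.2%) had p under 0.05, a smaller share than the 22.9% of all probe sets. Hoxb4 was called without CD4cre day 0 replicate 3, where 4.31% of all probe sets were. Hoxc6, near background, was called without CD4cre day 7 replicate 2, where 5.3% of all probe sets were. With arrays centred on the median of all probe sets 8 Hox genes were called, where 40% of all probe sets were. Of these 8 Hoxb4 alone was above background.

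**Figure D5:**
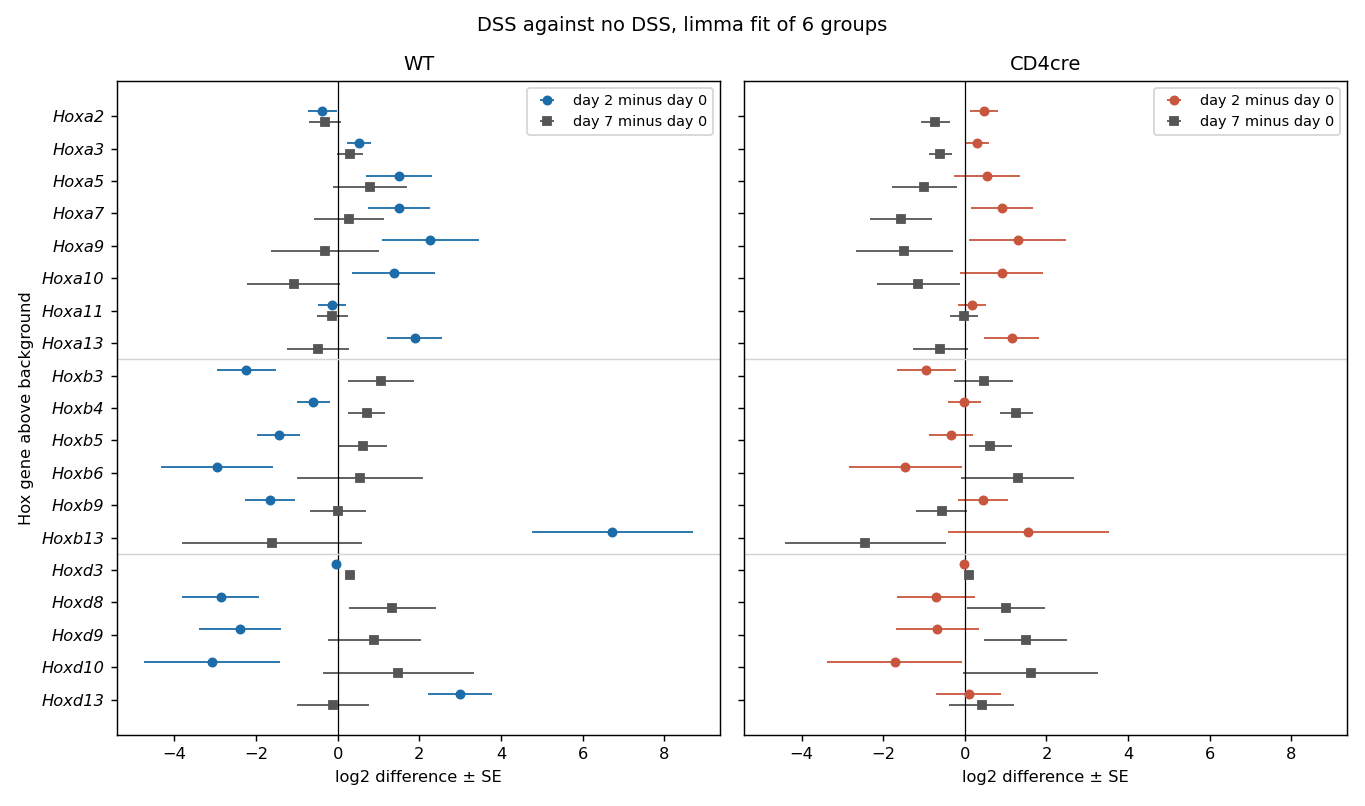
Log2 difference ± SE from the limma fit (x axis, the same scale in both panels) between DSS and no DSS for the 19 Hox genes above background (y axis, by cluster), in WT (left) and CD4cre mice (right). On WT day 2 the middle genes of cluster b and Hoxd8 to Hoxd10 lie left of 0 and Hoxb13 and Hoxd13 right of it, and no difference passed the threshold.

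Between the genotypes, 0.00666% of all probe sets were called on day 0, 0.0422% on day 2 and 1.51% on day 7. The lowest adjusted p values of Hox genes were 0.967 for Hoxa3 on day 0, 0.354 for Hoxd13 on day 2 and 0.203 for Hoxb9 on day 7, and 1, 2 and 1 Hox genes had an unadjusted p under 0.05, where 4.52%, 7.33% and 15.2% of all probe sets had. The log2 difference of Hoxd13 between CD4cre and WT mice was -2.73 ± 0.79 (SE) on day 2, and that of Hoxb9 was -1.90 ± 0.69 (SE) on day 7. Hoxb9 measured 5.10, 3.52 and 5.22 in CD4cre mice and 6.88 and 6.15 in WT mice on day 7. Hoxd3, near background, was called on day 7 without CD4cre day 7 replicate 3, 1 of 33, where 6.84% of all probe sets were. With array quality weights 15 of 33 were called on day 0, where 18.7% of all probe sets were.

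Setting the DSS effect in CD4cre mice against that in WT mice called 0.00222% of all probe sets on day 2 and 0.14% on day 7. For Hoxb13 it was -5.18 ± 2.79 (SE) on day 2 and -0.83 ± 2.96 (SE) on day 7, a spread that does not exclude large differences. The test of any difference among the 6 groups called 5.46% of all, and its lowest adjusted p among the Hox genes was 0.116, for Hoxb3. Without adjustment 2 and 0 Hox genes had p under 0.05 for the difference of effects on days 2 and 7, where 4.28% and 9.83% of all probe sets had. For any difference 9 of 33 (27.3%) had, near the 21% of all probe sets. The test of any difference called Hoxb3 and Hoxb5 without CD4cre day 0 replicate 3, where 5.16% of all probe sets were called. It called Hoxd13 without WT day 2 replicate 3, where 3.72% were, and 22 genes with array quality weights, where 34.9% were.

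Other genes of the Hox pathway were read from fixed lists. In the 10 tests, which called 0.00222% to 6.74% of all probe sets, 0 Hox cofactors were called. Of 8 measured, 6 were above background: Meis1, Meis2, Meis3, Pbx2, Pbx3 and Pknox1. The other 5 having neither order, Pbx3 ranged from 8.95 to 9.56 in the 7 samples with high Hoxd10 and from 9.61 to 10.65 in the other 10. Of 19 measured Cdx and other gut regional factors 13 were above background. Cdx1 ranged from 8.60 to 10.29 and Cdx2 from 8.37 to 10.33 over all samples, and neither was called. Gata6, a factor of the gut epithelium, was the 1 gene of this list called, at -1.12 ± 0.21 (SE; limma adjusted p = 0.0102) in CD4cre mice on day 7 against day 0. That comparison called 6.74% of all probe sets, so 1 of 19 is near the share of all. The difference of Gata6 between the genotypes on day 7 was -1.07 ± 0.24 (SE; limma adjusted p = 0.0491), where 1.51% of all probe sets were called.

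Of 16 measured genes of the retinoic acid pathway, which induces Hox genes in the embryo, 3 were higher in CD4cre mice on day 7 than on day 0, a comparison that called 6.74% of all probe sets. Rdh10, which makes retinal from retinol, differed by 1.35 ± 0.25 (SE; limma adjusted p = 0.00837) and Aldh1a3, which makes retinoic acid, by 2.23 ± 0.61 (SE; limma adjusted p = 0.0491). Dhrs3, which turns retinal back to retinol, differed by 0.84 ± 0.23 (SE; limma adjusted p = 0.0487). Of 12 Mll and partner genes, Kmt2a, the histone methyltransferase that keeps Hox genes active, differed by 0.81 ± 0.21 (SE; limma adjusted p = 0.0406) in the same comparison, and the other 11 were not called there. Of 18 Polycomb genes 0 were called in a comparison of days or genotypes, where 0.00666% to 6.74% of all probe sets were. The test of any difference among the 6 groups called 2 of them, Mtf2 and Phc3, where 5.46% of all probe sets were called.

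Markers of the tissue and its regions were read beside the Hox values. All 11 measured colon epithelium markers were above background, Muc2 of goblet cells at 15.34 to 15.78. Of 10 measured genes of other gut segments Fabp6, Slc10a2 and Tff2 were above background, and Lct, Gata4, Pdx1, Gkn1, Gkn2, Atp4a and Pgc, of the small intestine and stomach, were not. Slc10a2, the bile acid transporter of the ileum, ranged from 7.90 to 11.39 in the 7 samples with high Hoxd10 and from 4.15 to 5.90 in the other 10. The other genes of that list did not divide the samples: Fabp6, a bile acid binding protein of the ileum, ranged from 5.24 to 9.25 and from 4.69 to 6.64, and Tff2, of the stomach, leaned the other way with 3.46 to 4.30 and 4.26 to 5.88. Of the 13 regional factors above background Isx and Osr2 were higher in each of the 7, and the other 11 had neither order. Osr2, a zinc finger factor, ranged from 7.29 to 9.37 in the 7 and from 2.32 to 2.46, under background, in the other 10. Of the 3 genes listed for the proximal colon, all above background, Aqp4, a water channel, ranged from 8.26 to 11.96 in the 7 and from 12.79 to 13.76 in the other 10. Cyp2c55 leaned the other way, from 14.38 to 14.89 in the 7 and from 13.25 to 14.68 in the other 10, and Fabp2 had neither order, from 13.45 to 14.61 and from 11.35 to 14.80. Their part in the Hox values was not tested.

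Smooth muscle carries Hox genes too, and tissue layers cannot be separated in these whole samples, in which fewer cells of a type and less RNA per cell cannot be told apart. The mean of 10 smooth muscle markers, all above background, ranged from 11.29 to 11.76 in the 7 samples and from 11.70 to 12.46 in the other 10. Of these markers Cnn1, Des and Tagln were lower in each of the 7 than in any of the other 10, with Cnn1, a muscle protein, from 11.64 to 12.12 and from 12.64 to 13.65. The mean of 10 fibroblast and matrix markers ranged from 9.92 to 10.80 and from 10.08 to 12.06. The part of these layers in the Hox values was not tested.

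The list means of neutrophil, macrophage, B cell and T cell markers did not divide the samples in the order of Hoxd10, although the T cell receptor subunit Cd3g, 1 of 4 T cell markers above background, ranged from 3.06 to 4.19 in the 7 samples and from 2.78 to 3.05 in the other 10. The mean of the 4 neutrophil markers above background, of 5 measured, ranged from 7.01 to 9.06 on CD4cre day 7 and from 4.75 to 5.08 on WT day 7. It ranged from 3.30 to 3.64 in the samples of days 0 and 2. CD4cre day 7 replicate 2, the highest of these, had Hoxb13 at 8.42 and Hoxd13 at 4.93, while the other 2 samples of its group had Hoxb13 at 2.93 and 2.94. The mean of the 3 B cell and lymphoid follicle markers above background, of 7 measured, ranged from 7.32 to 7.75 on WT day 2, the group with the highest Hoxb13 and Hoxd13. It ranged from 6.42 to 6.49 on WT day 7, the group with the lowest Hoxb13, and from 4.66 to 5.01 on WT day 0. In CD4cre mice it ranged from 4.54 to 4.83 on day 0, from 4.80 to 5.07 on day 2 and from 5.26 to 7.36 on day 7. Atp12a, which pumps protons out of cells of the distal colon, was the 1 gene above background of 3 listed for it. It measured 12.47, 12.35 and 11.12 on WT day 2 and ranged from 5.07 to 5.34 on WT day 0. The log2 difference was 6.81 ± 1.19 (SE; limma adjusted p = 0.0376). Atp12a ranged from 5.51 to 6.29 on WT day 7 and from 5.56 to 7.38 on CD4cre day 0. On CD4cre day 2, with Hoxb13 from 6.60 to 10.87, it ranged from 5.57 to 7.78, and on CD4cre day 7 from 5.10 to 10.56. The part of these cells in the Hox values was not tested.

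The genes whose values were most like those of Hoxb13, the Hox gene with the largest spread, were sought among 12534 genes above background by Pearson's r over the 17 samples. Because the samples fall in separate ranges, r is a description with no test. The highest were Ggh, which cleaves folate polyglutamates (0.985), the aspartic protease Ctse (0.982), Prkacb, a catalytic subunit of protein kinase A (0.975), Nxpe4 (0.972) and Mptx1, a mucosal pentraxin (0.964). The lowest were the pantetheinase Vnn1 (-0.976), the gut peptide neurotensin, Nts (-0.976), the peroxisomal thiolase Acaa1b (-0.972), Appl1 (-0.965) and Prap1 (-0.953). Mptx1 ranged from 3.08 to 6.57 in the 7 samples with high Hoxd10 and from 8.56 to 16.47 in the other 10. Nts ranged from 9.44 to 11.24 and from 2.53 to 8.59.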

How the data were processed

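Labelled RNA of 17 colonic mucosa samples was hybridised to Affymetrix whole-genome mouse arrays, 1 array a sample. The authors deposited log2 expression values for 45101 probe sets, made with GCRMA in R 2.9.0 per the labels' processing notes, which corrects background by probe sequence, normalizes by quantiles and summarises probes. Low values shrink towards a floor. Here 64 control probe sets were left out. Genes were named from the platform annotation, and 3 probe sets shared by several Hox genes were left out. Members and gene lists were chosen with earlier results of these data known. A linear model with 6 group means was fitted to 45037 probe sets (R 4.3.3, limma 3.58.1), moderated by empirical Bayes, with two-sided tests and Benjamini-Hochberg adjustment within each comparison. Every Hox gene was accounted for. Sample values were printed for paralog group 13, for any Hox gene called, and for the member of each cluster with the largest residual SD among those above background (cluster c had no such member). List means were taken over the markers above background. Precision is limited by how many arrays there were. The fit was tested on simulated data, with changes planted only in probe sets of lower residual SD than many of the Hox genes have. That test cannot show how well changes in such Hox genes are found.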

Additional observations from a re-analysis of the deposited data

How the results depend on the processing

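In the 10 tests, 255 of 279 counts of called Hox genes under other settings stayed at 0. The exceptions by test were as follows. Weights for array quality, whose iteration did not converge, gave 1 WT day 0 array a weight of 16.6. With them the counts were 16 for WT day 2 and 2 for WT day 7 against day 0, where 18.4% and 5.54% of all probe sets were called. For CD4cre day 7 against day 0 the count was 4, where 13.8% of all were called. The counts were 15 between genotypes on day 0 and 22 for any difference, where 18.7% and 34.9% of all were called. Centring arrays on the median of all probe sets gave 8 for CD4cre day 7, of which 7 were under background, and 1 for any difference. This centring called 40% and 7.36% of all probe sets in these tests. Leaving out probe sets under background, or a threshold of 0.1, gave 1 for CD4cre day 7, Hoxb4. At an unadjusted p under 0.05 the counts were 8 and 2 in WT mice on days 2 and 7, 5 for CD4cre day 7, 1, 2 and 1 between genotypes on days 0, 2 and 7, 2 for the difference of DSS effects on day 2 and 9 for any difference.

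Fits without 1 sample each (leave-one-out) gave 0 to 1 for WT day 2 (Hoxd13 without WT day 2 replicate 3) and 0 to 1 for CD4cre day 7 (Hoxb4 without CD4cre day 0 replicate 3, Hoxc6 without CD4cre day 7 replicate 2). They gave 0 to 1 between genotypes on day 7 (Hoxd3 without CD4cre day 7 replicate 3) and 0 to 2 for any difference. That last count was 2 without CD4cre day 0 replicate 3 (Hoxb3 and Hoxb5), 1 without CD4cre day 7 replicate 2 (Hoxc6) and 1 without WT day 2 replicate 3 (Hoxd13). For any difference these fits called, in the same sequence, 5.16%, 5.65% and 3.72% of all probe sets. The replicate block called 0 in every test, where 0% to 5.88% of all probe sets were called. Of 40 pairs of same-numbered samples 16 had deviations correlated over 0.1, and all pairs ranged from -0.44 to 0.50. Without differently numbered pairs beside them, these values cannot show whether the numbers pair the samples. The orders of samples by Hoxd10 and the count of residual SDs over 1 were added after seeing the data. No Hox gene was called, so alternatives for called genes had nothing to recompute. With 2 or 3 arrays a group and residual SDs up to 2.51, large differences could go undetected.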

Other observations

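Counted by gene, 346 genes had either the order of Hoxd10 or its reverse over the 17 samples, beside which Hox genes were a small part. The transporter Slc10a2 and the gut peptide Nts, given above, were among them. Others are named here, after their values were seen. Car1, a carbonic anhydrase of colonic epithelium, ranged from 15.34 to 15.89 in the 7 samples with high Hoxd10 and from 13.55 to 15.16 in the other 10. Isx, an intestinal homeodomain factor that represses vitamin A uptake, ranged from 9.64 to 10.56 and from 5.58 to 9.08. Vnn1 ranged from 8.87 to 10.47 and from 4.10 to 7.29, and Prap1 from 9.55 to 10.96 and from 2.42 to 8.17. Ctse ran the other way, from 4.95 to 6.26 in the 7 samples and from 7.91 to 11.80 in the other 10, and Nxpe4 from 4.73 to 6.59 and from 8.79 to 11.57. Fbln1, a matrix protein of fibroblasts, ranged from 7.31 to 7.94 and from 8.22 to 9.74. These values are given without an explanation.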
